A study of Mus musculus with 48 samples.

Results

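*Dazl*, *Ddx4*, *Mael*, *Sycp1*, *Sycp3*, *Stk31*, *Asz1*, *Tex101*, *Slc25a31* and *Taf7l* are genes of the germ line that somatic cells keep silent, with DNA methylation of their promoters as one of the known means. These 10 genes were taken by name from the 55335 gene rows of both deposited tables, and all 10 were found in each. Their levels were followed across mouse embryonic stem cells (mESCs) in which the nuclear RNA proteins NRDE2, MTREX or CCDC174 had been altered, beside the level of *Dnmt1*, the maintenance DNA methyltransferase, in the same libraries. No DNA methylation was measured here, so the word silenced describes the class and not a state of these cells.

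The study asked how NRDE2, which binds the nuclear exosome helicase MTREX, and its partner CCDC174 act on gene expression and splicing. It provided 28 RNA-seq libraries in 14 groups and 4 Ribo-seq (ribosome footprint) libraries in 2 groups, with 2 libraries per group. All lines were male mESCs of hybrid 129-C57BL/6 background, made from a parental line with Cre-ERT2 at *Rosa26*, edited and grown from picked clones, and kept in serum, LIF and 2i inhibitors. *Nrde2*-KO cells were conditional knockouts induced with 100 nM 4-hydroxytamoxifen (4OHT) for 4 d, and *Mtrex*-KO cells received 100 nM 4OHT for 3 d. WT in the RNA-seq of these experiments meant the uninduced conditional line without 4OHT. The Ribo-seq WT label names neither a conditional line nor 4OHT. Knockout and 4OHT exposure can therefore not be told apart. For *Nrde2*-KO in Ribo-seq the labels give 4 d of 4OHT, while the paper's methods give 3 d before seeding and overnight growth. *Nrde2*Δ*200* cells lacked the first 200 amino acids of NRDE2, and *Nrde2-D174R* cells carried that substitution. Both were compared with the same WT libraries as the first *Nrde2*-KO experiment, which means that these 3 comparisons share their controls. *Ccdc174-dTAG* cells expressed a Ccdc174-FKBP12F36V fusion and were depleted with 500 nM dTAG-13 for 24 h, while their WT carried the fusion without the compound, so depletion and compound cannot be told apart. A second *Nrde2*-KO experiment and the *Ccdc174-dTAG* experiment were each run without and with cycloheximide (CHX, 0.1 mg/ml for 4 h), which blocks translation and with it nonsense-mediated RNA decay.

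DNA methylation at CpG-rich promoters is copied onto the new strand at replication by DNMT1, which UHRF1 guides to hemimethylated sites, and a set of germline genes depends on this copying for its repression in somatic cells. In mESCs the same genes are also held down by PRC1.6, a noncanonical Polycomb complex that contains MGA with MAX, E2F6 with its DP partner, PCGF6 and L3MBTL2. MGA and MAX bind the E-box CACGTG and E2F6 binds the E2F motif TCCCGC. Cells in 2i medium are known for low genome-wide DNA methylation.

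The promoters of 6 of the 10 genes are printed because they show the range of both motifs, from both to neither, and hold the genes with the largest (*Taf7l*) and the smallest (*Sycp3*) RNA change in *Mtrex*-KO. Each is the RefSeq window from 250 bases before to 50 bases after the annotated start on GRCm38.p6, written 5′ to 3′ on the gene's strand, with the E-box CACGTG and the E2F motif TCCCGC (or its reverse complement GCGGGA) in capitals. The windows lie at chr17:50293571-50293870 for *Dazl* (minus strand), chr13:112652261-112652560 for *Ddx4* (minus), chr1:166238695-166238994 for *Mael* (minus), chr10:88459337-88459636 for *Sycp3* (plus), chr3:40708621-40708920 for *Slc25a31* (plus) and chrX:134476441-134476740 for *Taf7l* (minus).
*Taf7l*: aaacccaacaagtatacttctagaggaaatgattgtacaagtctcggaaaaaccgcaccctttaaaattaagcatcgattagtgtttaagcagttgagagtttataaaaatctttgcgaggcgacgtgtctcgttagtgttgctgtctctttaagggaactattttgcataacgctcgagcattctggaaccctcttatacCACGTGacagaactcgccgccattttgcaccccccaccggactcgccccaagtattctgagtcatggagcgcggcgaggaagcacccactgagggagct
*Mael*: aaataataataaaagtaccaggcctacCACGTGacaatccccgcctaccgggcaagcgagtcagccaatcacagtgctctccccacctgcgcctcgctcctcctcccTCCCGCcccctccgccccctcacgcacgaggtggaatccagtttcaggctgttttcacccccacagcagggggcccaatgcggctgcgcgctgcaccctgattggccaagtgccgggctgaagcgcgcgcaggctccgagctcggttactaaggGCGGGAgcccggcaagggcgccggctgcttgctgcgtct
*Slc25a31*: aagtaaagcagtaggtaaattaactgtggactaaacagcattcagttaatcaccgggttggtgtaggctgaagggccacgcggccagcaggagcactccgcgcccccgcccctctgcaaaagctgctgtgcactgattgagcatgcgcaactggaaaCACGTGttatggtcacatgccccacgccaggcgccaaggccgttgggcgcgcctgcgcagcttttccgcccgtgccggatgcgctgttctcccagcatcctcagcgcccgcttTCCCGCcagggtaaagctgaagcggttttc
*Ddx4*: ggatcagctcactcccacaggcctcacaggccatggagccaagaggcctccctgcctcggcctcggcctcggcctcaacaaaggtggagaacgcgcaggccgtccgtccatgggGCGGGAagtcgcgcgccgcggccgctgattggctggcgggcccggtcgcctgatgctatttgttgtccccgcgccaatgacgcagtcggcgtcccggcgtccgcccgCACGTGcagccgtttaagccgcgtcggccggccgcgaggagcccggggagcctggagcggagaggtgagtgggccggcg
*Sycp3*: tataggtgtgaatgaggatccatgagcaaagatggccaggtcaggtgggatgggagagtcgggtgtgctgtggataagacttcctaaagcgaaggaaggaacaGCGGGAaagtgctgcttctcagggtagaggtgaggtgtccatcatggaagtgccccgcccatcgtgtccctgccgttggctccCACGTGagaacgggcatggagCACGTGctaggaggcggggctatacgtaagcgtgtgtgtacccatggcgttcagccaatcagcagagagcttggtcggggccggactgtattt
*Dazl*: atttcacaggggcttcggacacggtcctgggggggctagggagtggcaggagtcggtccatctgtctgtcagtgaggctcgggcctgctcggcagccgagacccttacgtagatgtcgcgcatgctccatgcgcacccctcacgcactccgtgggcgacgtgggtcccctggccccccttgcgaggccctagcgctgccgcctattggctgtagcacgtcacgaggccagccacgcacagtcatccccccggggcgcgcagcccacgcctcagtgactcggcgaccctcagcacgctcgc
The E-box was found in 7 of the 10 promoters, once each in *Ddx4*, *Mael*, *Sycp1*, *Stk31*, *Slc25a31* and *Taf7l* and at 2 places in *Sycp3*. Over all 32851 RefSeq windows of this length 7.15% held it. The E2F motif was found in 5 of the 10, in *Ddx4*, *Mael*, *Sycp1*, *Sycp3* and *Slc25a31*, against 19.98% of all windows. No E-box and E2F motif overlapped in a window. *Taf7l* held the E-box 49 bases before the start and no E2F motif, and *Dazl*, *Asz1* and *Tex101* held neither within the window. The 10 windows were also rich in CpG, with an observed over expected ratio from 0.666 in *Sycp3* to 1.03 in *Taf7l* and a median over all windows of 0.384. Among the 8876 windows within that range, 11.2% held the E-box and 43.6% the E2F motif. A match is a description of the letters in the window, and no occupancy was measured here.

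**Figure D1:**
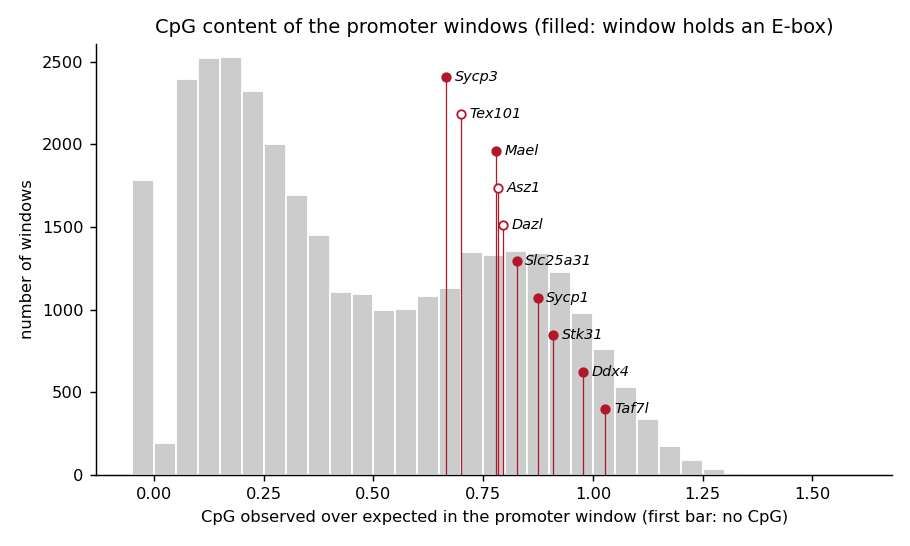
CpG content of the promoters, as the observed over expected ratio of CpG on the x axis, for all RefSeq windows of 300 bases (grey bars, number of windows on the y axis) and for the 10 germline genes (named marks, filled where the window holds an E-box, at heights that have no meaning). The germline genes sit between 0.666 and 1.03, to the right of the median over all windows of 0.384.

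All levels below are CPM, the reads of a gene scaled to a fixed library total, divided by a size factor per library. They are called normalised CPM, and every difference was tested with limma on log2(normalised CPM + 0.25). A gene was called up-regulated or down-regulated at an adjusted p below 0.01 together with a change of more than 1 on the log2 scale. The RNA-seq libraries held 28683644 to 36272309 reads in genes and the Ribo-seq libraries 3475051 to 5035940. Both *Mtrex*-KO libraries stood apart, with 72.1% and 82.7% of their reads in genes, at least 83.6% in the other 26 RNA-seq libraries, and size factors of 0.685 and 0.833 where the others lay between 0.926 and 1.15. Each group had 2 libraries, without a statement that they came from separate cultures. The p-values therefore measure the spread between libraries of a group, which may be technical. In a fit of more than 2 groups that spread is estimated per gene over all of them. SE and p are then not those of the compared groups alone. *Mtrex* RNA was at 111 and 118 normalised CPM in the WT of its experiment and at 41.3 and 46.2 in *Mtrex*-KO. The other WT groups without CHX held *Mtrex* RNA at 194 to 254, so the uninduced *Mtrex* line was already below them. The reason was not tested. *Nrde2* RNA was between 40.3 and 53.3 in WT of the *Nrde2* experiments and between 19.17 and 20.31 in *Nrde2*-KO without CHX. In the footprints it was at 12.2 and 14.2 in WT and at 2.33 and 3.24 in *Nrde2*-KO. With CHX the libraries labelled *Nrde2*-KO held 249 and 257 normalised CPM of *Nrde2* against 224 and 242 in WT, so directions in that comparison rest on the labels. CCDC174 was removed as a protein and its RNA checks nothing. All 7 pluripotency markers were detected in every group. Among the 6 markers of later spermatogenic cells *Prm1* and *Prm2* had no reads in most groups, while *Ldhc* was detected in every group. In *Ccdc174* WT without CHX the other 5 had no reads and *Ldhc* was at 7.39 and 9.18 normalised CPM.

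In WT cells without CHX the 10 genes were present at low to moderate levels, and none was without reads in any of the 32 libraries. Per kilobase of exon, over the 8 WT libraries without CHX, the median level was highest for *Dazl* at 11.0 normalised CPM per kb and lower in turn for *Stk31* (6.47), *Sycp3* (4.42), *Ddx4* (2.81), *Sycp1* (1.61), *Mael* (1.46), *Taf7l* (0.721), *Slc25a31* (0.573), *Asz1* (0.278) and *Tex101* (0.215). The ranges over these 8 libraries overlapped for each neighbouring pair in that order. *Dnmt1*, at a median of 66.1 normalised CPM per kb, lay above all of them. *Asz1* was counted from 3 to 224 reads per RNA-seq library and *Tex101* from 8 to 159, so single libraries carry a large counting error for these genes.

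The WT groups differed among themselves for these genes while *Dnmt1* hardly did. Both *Nrde2* WT groups carry the same label, the conditional *Nrde2* knockout, and still differed in both directions. In the first and second experiment the WT mean was 3.33 and 8.31 normalised CPM for *Sycp1*, and 23.3 and 18.6 for *Stk31*. Differences between lines and between experiments can therefore not be told apart. The highest WT group mean was 4.83-fold the lowest for *Dazl*, 4.66-fold for *Mael*, 11.4-fold for *Asz1* and 1.33-fold for *Stk31*, against 1.15-fold for *Dnmt1*. The WT cells of the *Mtrex* experiment had the lowest WT mean of all 10 genes except *Tex101*, and the WT cells of the *Ccdc174* experiment had the highest mean of 5 of them. *Dazl* also differed between libraries of one group, at 71.5 and 143 normalised CPM in *Ccdc174* WT. Each altered line is therefore set against its own WT below, and a level that was high relative to one WT group could lie within the range of the others.

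**Figure D2:**
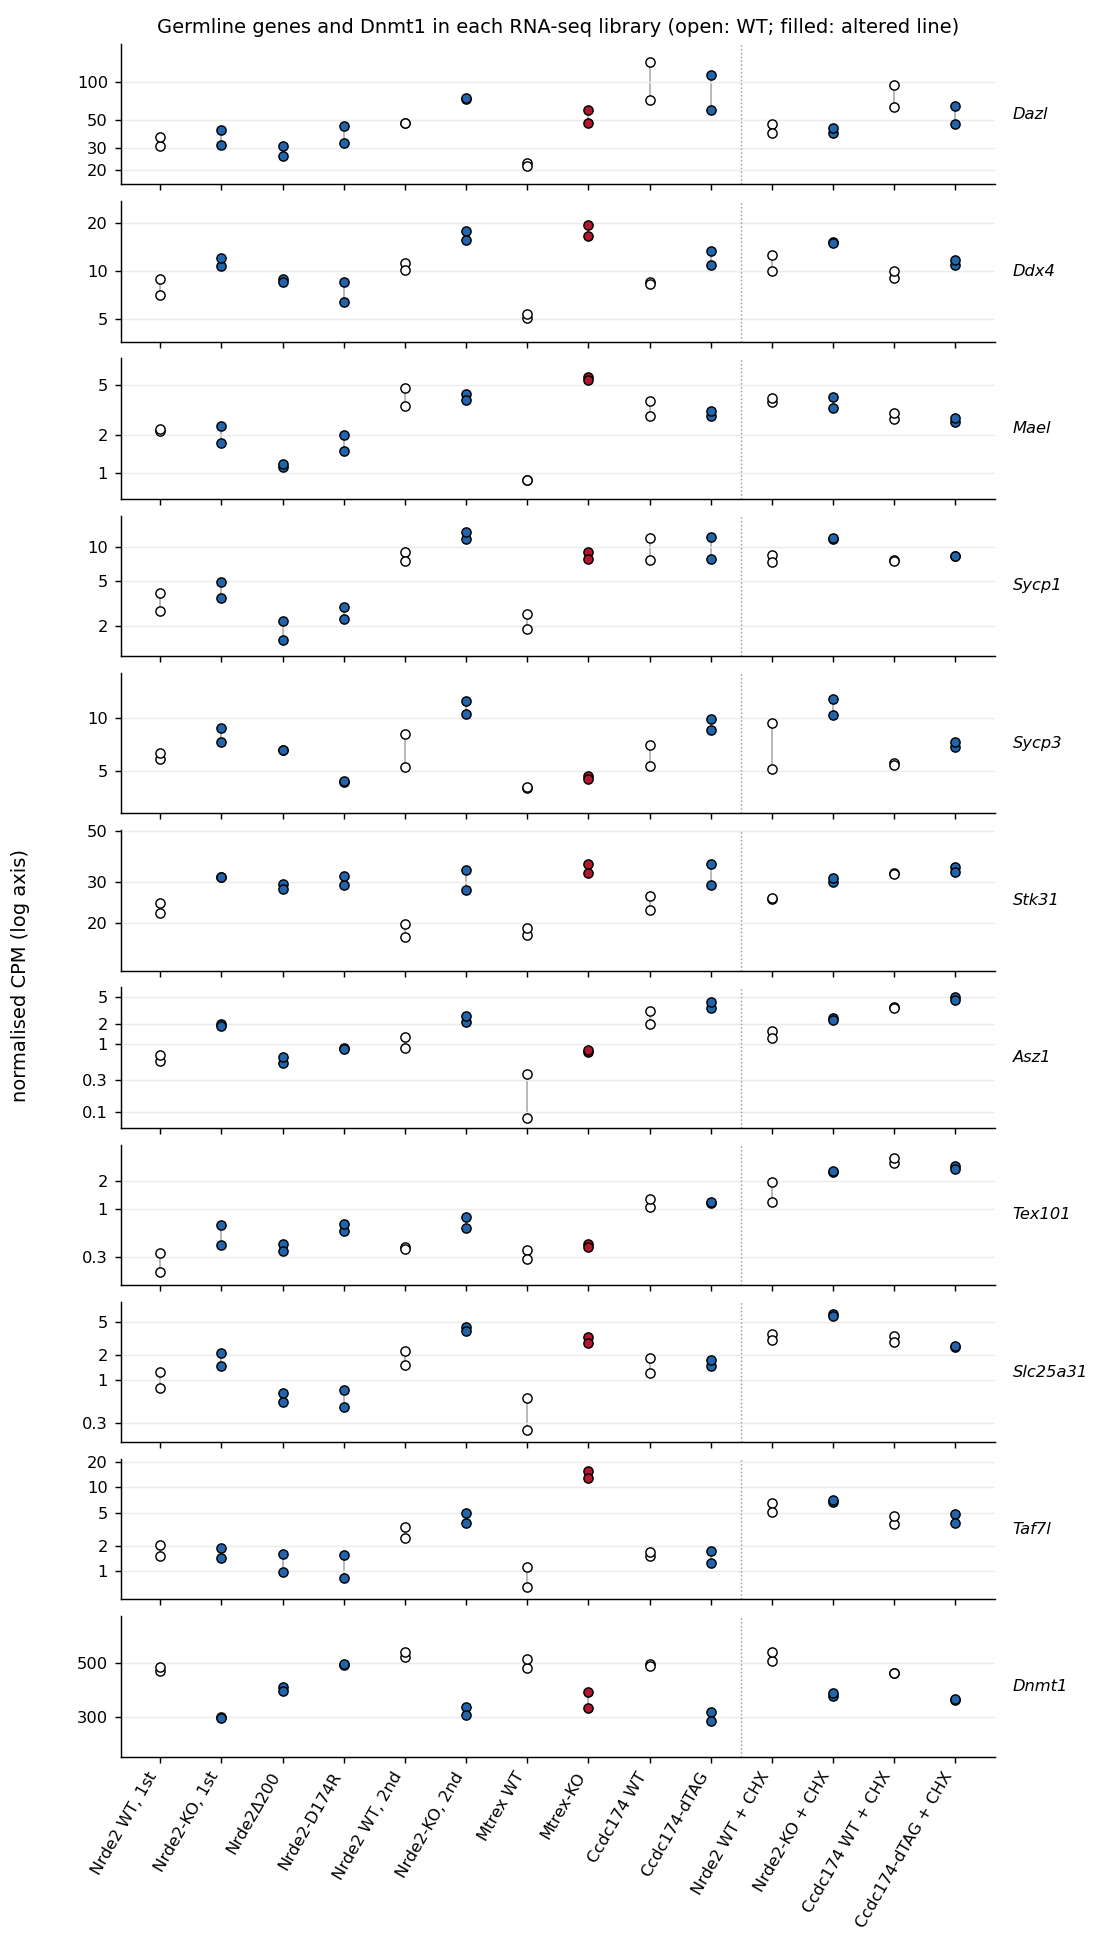
Normalised CPM (log axis) of the 10 germline genes and *Dnmt1* in each RNA-seq library, 1 panel per gene, with 2 points per group and the groups along the x axis. *Taf7l* reached 12.7 and 15.4 in *Mtrex*-KO, above all other RNA-seq libraries, and *Dnmt1* was lower in *Nrde2*-KO, *Mtrex*-KO and *Ccdc174-dTAG* than in the matching WT.

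Loss of MTREX gave the most calls among these genes. In *Mtrex*-KO 7 of the 10 genes were up-regulated and none was down-regulated (15.8% of the 14889 genes tested were up-regulated and 10.9% down-regulated), and all 10 log2 fold changes lay above 0, as did 49.9% of those of all genes. The median over the 10 genes was 1.49 on the log2 scale and that over all genes 0.00. Both *Mtrex*-KO libraries lay above both WT libraries for all 10 genes, which held for 39.0% of all genes. edgeR and DESeq2 on the recovered reads called 7 of the 10 as well.

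*Taf7l*, on the X chromosome (chrX:134460118-134476490, mm10), encodes a germ cell paralog of the TFIID subunit TAF7. Its level was 1.14 and 0.651 normalised CPM in the WT libraries and 15.4 and 12.7 in *Mtrex*-KO. The groups were far apart. The log2 fold change, given here and below ± its SE, was 3.67 ± 0.29 (adjusted p = 6.8e-09, limma), the largest among the 10. *Slc25a31* (chr3:40708855-40726096), which encodes the ADP/ATP carrier of the testis, was at 0.245 and 0.595 in WT and at 3.26 and 2.76 in *Mtrex*-KO. It rose by 2.33 ± 0.29 on the log2 scale (adjusted p = 1.9e-06, limma).

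The next genes belong to germ granules and to the piRNA pathway, which silences transposons in germ cells. *Mael* (chr1:166201201-166238747), a component of that pathway, was at 0.870 and 0.878 normalised CPM in WT and at 5.83 and 5.45 in *Mtrex*-KO, a log2 fold change of 2.39 ± 0.20 (adjusted p = 1.7e-08, limma). *Ddx4* (chr13:112598333-112652475), the germ cell RNA helicase also called Vasa, went from 5.08 and 5.38 to 19.5 and 16.6, which was 1.73 ± 0.16 on the log2 scale (adjusted p = 3.5e-08, limma). Both genes lay well outside the spread of their WT libraries. *Asz1* (chr6:18050964-18109061), which encodes a mitochondrial outer membrane protein of the piRNA pathway, was at 0.0816 and 0.368 in WT and at 0.763 and 0.828 in *Mtrex*-KO. Its log2 fold change was 1.21 ± 0.27 (adjusted p = 8.1e-04, limma), but the lower WT library rested on 3 reads and without it the value was 0.76 and not called. *Stk31*, a Tudor and kinase domain protein of testis, was at 17.7 and 19.0 in WT and at 32.9 and 36.1 in *Mtrex*-KO, and with 0.90 ± 0.12 (adjusted p = 5.1e-06, limma) it passed the p threshold and not the fold threshold.

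Meiotic genes were split. *Sycp1*, the transverse filament protein of the synaptonemal complex that joins paired chromosomes in meiosis, was at 1.88 and 2.58 normalised CPM in WT and at 9.09 and 7.80 in *Mtrex*-KO, and rose by 1.82 ± 0.27 on the log2 scale (adjusted p = 1.1e-05, limma). *Sycp3*, an axial element protein of the same complex, was at 4.02 and 4.05 in WT and at 4.68 and 4.52 in *Mtrex*-KO. Its log2 difference was 0.18, with a 95% confidence interval from -0.21 to 0.56. *Sycp3* overlaps *Chpt1* on the opposite strand, and the authors counted reads by strand. *Dazl* (chr17:50279395-50293636), an RNA-binding protein that germ cells need for translation of their mRNAs, was at 22.7 and 21.7 in WT and at 47.2 and 60.2 in *Mtrex*-KO, a log2 fold change of 1.26 ± 0.27 (adjusted p = 6.3e-04, limma). *Tex101*, a cell surface glycoprotein of germ cells and sperm, was at 0.353 and 0.283 in WT and at 0.416 and 0.380 in *Mtrex*-KO, and its log2 difference of 0.19 had an interval from -0.29 to 0.67.

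Against the WT cells of all 4 experiments, the picture was narrower. Both *Mtrex*-KO libraries lay above all 8 WT libraries without CHX for 5 of the 10 genes, namely *Ddx4*, *Mael*, *Stk31*, *Slc25a31* and *Taf7l*. The share of all genes for which this held was not computed, so the count only describes the listed genes. For *Dazl*, *Sycp1*, *Sycp3*, *Asz1* and *Tex101* at least 1 WT library of another experiment was higher. On the CPM as deposited, without a size factor, the median of all genes in *Mtrex*-KO shifted to -0.38 and the calls of *Dazl* (0.86) and *Asz1* (0.91) were lost.

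The level of *Dnmt1* itself was 476 and 515 normalised CPM in WT and 324 and 380 in *Mtrex*-KO. Its log2 fold change of -0.50 ± 0.08 (adjusted p = 5.1e-05, limma) passed the p threshold but not the fold threshold. In the same libraries *Uhrf1*, the cofactor that brings DNMT1 to replicated DNA, fell from 651 ± 32.6 to 163 ± 42.0 (SD, n = 2), a log2 fold change of -2.01 (adjusted p = 2.9e-10, limma). Among the 13 genes of the DNA methylation machinery, all tested, *Uhrf1* was the 1 down-regulated gene, and *Dnmt3l*, the catalytically inactive partner of the de novo methyltransferases, and *Tet3*, a 5-methylcytosine dioxygenase, were the 2 up-regulated ones (log2 fold changes 1.61 and 1.05). Of 19 genes of PRC1.6 and of histone repressors, 2 were up-regulated, *E2f6* (1.24) and *Atf7ip* (1.01), and 2 down-regulated, *Tfdp1*, the DP partner of E2F factors (-1.54), and *Ehmt2*, the H3K9 methyltransferase G9a (-1.36). The core subunits *Mga* (0.29), *Pcgf6* (-0.64) and *L3mbtl2* (-0.35) were not called.

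Other germline genes did not move as one. Of 50 further germline genes 40 passed the filter on low values, 11 were up-regulated and 6 down-regulated in *Mtrex*-KO, and their median log2 fold change was 0.46. *Rhox13* (2.23), a homeobox gene of the germ line, *Hormad1* (2.19), a meiotic axis protein, and *Tdrd7* (1.99), a germ granule protein, had the largest increases. *Tdrd12* (-1.68), a piRNA pathway helicase, *Syce2* (-1.64), a synaptonemal complex protein, and *Stra8* (-1.53), a gatekeeper of meiotic entry, had the largest decreases.

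Markers of 2-cell-like cells, a rare state of mESC cultures that resembles the early embryo, moved with *Mtrex*-KO as well. All 8 were up-regulated, with a summed level of 104 to 292 normalised CPM against 4.79 to 15.2 in WT. Of the 7 pluripotency markers 1, *Nanog*, was down-regulated (log2 fold change -1.03), and their summed level was 5498 and 5557 in WT and 4204 and 4850 in *Mtrex*-KO. Of 5 primitive endoderm markers tested, 2 were up-regulated, *Gata6* and *Dab2*, while of 7 primordial germ cell markers 1 was up-regulated and 3 were down-regulated, with *Kit* at -2.59. Their part in the result was not tested, and in bulk RNA a change in the number of cells that express a gene and a change in RNA per cell cannot be told apart. Of the 6 later spermatogenic markers, 5 had no reads in the *Mtrex* WT libraries and 4 (*Prm1*, *Prm2*, *Tnp1* and *Spaca1*) had none in *Mtrex*-KO, while *Ldhc*, the 1 marker that was tested, fell from 2.19 ± 0.514 to 0.276 ± 0.195 (SD, n = 2; log2 fold change -2.24, adjusted p = 2.4e-07, limma).

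**Figure D3:**
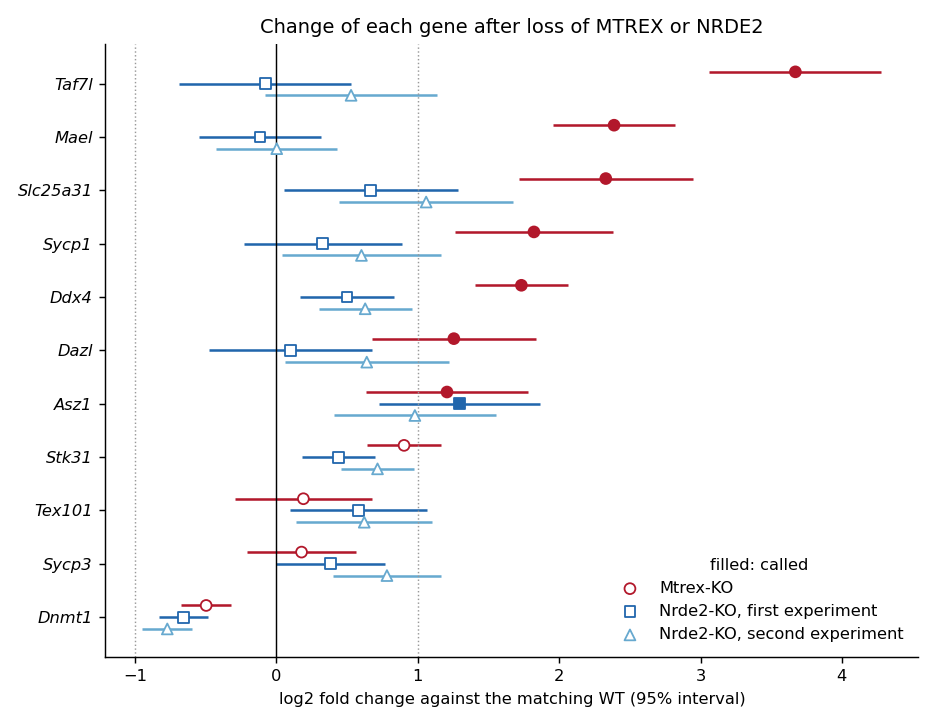
Log2 fold changes, on the log2(normalised CPM + 0.25) scale, with 95% confidence intervals for the 10 germline genes and *Dnmt1* in *Mtrex*-KO and in both *Nrde2*-KO experiments. *Taf7l* lies at 3.67 in *Mtrex*-KO and at -0.08 and 0.53 in *Nrde2*-KO, and *Dnmt1* lies below 0 in all 3.

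In the first *Nrde2*-KO experiment 1 of the 10 was up-regulated and none down-regulated (3.02% and 1.98% of all genes), 8 log2 fold changes lay above 0 (50.6% of all genes) and the median over the 10 was 0.41. The up-regulated gene was *Asz1*, at 0.573 and 0.697 normalised CPM in WT and 1.97 and 1.86 in *Nrde2*-KO, with a log2 fold change of 1.30 ± 0.27 (adjusted p = 0.0016, limma). That call was lost without the first WT library or without either *Nrde2*-KO library, at adjusted p-values of 0.012 to 0.021 and log2 fold changes of 1.19 to 1.33.

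Most of the other genes were slightly higher in *Nrde2*-KO without a call. *Stk31* was at 22.1 and 24.4 normalised CPM in WT and at 31.7 and 31.6 in *Nrde2*-KO (log2 fold change 0.44, adjusted p = 0.012, limma). *Ddx4* was at 8.92 and 7.13 in WT and at 10.7 and 12.1 in *Nrde2*-KO (0.50, adjusted p = 0.022, limma). Their groups did not overlap, nor did those of *Sycp3*, *Asz1*, *Tex101* and *Slc25a31*, so that 6 of the 10 were higher in both libraries, as were 35.6% of all genes. *Taf7l*, the gene with the largest change in *Mtrex*-KO, was at 1.51 and 2.04 in WT and at 1.44 and 1.89 in *Nrde2*-KO, and *Mael* was at 2.17 and 2.25 in WT and at 1.72 and 2.36 in *Nrde2*-KO. Both overlapped between the groups, with intervals from -0.69 to 0.53 for *Taf7l* and from -0.54 to 0.31 for *Mael*.

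The second *Nrde2*-KO experiment had its own WT libraries. None of the 10 genes was called by limma (2.4% of all genes were up-regulated and 2.42% down-regulated). An unadjusted p below 0.05 (limma) was found for 8 of the 10, and for 6172 of the 14889 genes tested. Of the 10, edgeR called 0 and DESeq2 called 1, *Slc25a31*. All 10 log2 fold changes lay above 0 (50.5% of all genes) with a median of 0.63, and 9 genes were higher in both knockout libraries, against 33.0% of all genes. *Slc25a31* was at 2.25 and 1.50 normalised CPM in WT and at 4.35 and 3.87 in *Nrde2*-KO (log2 fold change 1.06, adjusted p = 0.011, limma), and it was called with the replicate number as a block (adjusted p = 0.0059, limma). *Stk31* went from 17.4 and 19.8 to 27.6 and 33.9 (0.72, adjusted p = 3.1e-04, limma) and *Dazl* from 47.1 and 47.7 to 73.2 and 74.8 (0.64, adjusted p = 0.087, limma). *Asz1* was at 0.875 and 1.29 in WT and at 2.11 and 2.60 in *Nrde2*-KO (0.98, adjusted p = 0.011, limma). *Sycp3* (0.78, adjusted p = 0.0036, limma) was called at 1.08 when the first WT library was left out. *Mael* was the 1 gene whose groups overlapped, at 3.41 and 4.73 against 4.28 and 3.79. A test of the difference between the 2 experiments called none of the 10 genes and no other gene (0.0% of all genes), and no member had an unadjusted p below 0.05.

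*Dnmt1* was lower in *Nrde2*-KO in both experiments. It was at 461 and 481 normalised CPM in WT and at 300 and 297 in *Nrde2*-KO in the first (log2 fold change -0.66 ± 0.08, adjusted p = 1.8e-05, limma), and at 528 and 552 against 327 and 306 in the second (-0.77 ± 0.08, adjusted p = 2.9e-06, limma). The groups were far apart, although neither value passed the fold threshold. *Uhrf1* was also lower without passing it, at -0.62 and -0.63. No gene of the DNA methylation machinery was called in either experiment, and *Ehmt2* (-1.22, in the second) was the 1 called gene of the PRC1.6 and histone repressor list. Of the 40 further germline genes tested, 2 were up-regulated and 3 down-regulated in each experiment. In both these were *Tex19.2* (2.40 and 2.31) and *Tex19.1* (1.62 and 1.38), mammalian germ cell and placenta genes that protect against transposons, and *Tdrd12* (-1.48 and -1.27), *Tex14* (-1.45 and -1.43) and *Zcwpw1* (-1.08 and -1.30). Of the 8 2-cell-like markers 7 were up-regulated in the first and 8 in the second experiment, with sums of 24.5 to 36.4 against 2.51 to 3.47 and of 104 to 111 against 7.18 to 7.46 normalised CPM. Of 5 primitive endoderm markers tested *Gata6* (1.78 and 2.18) and *Dab2* (1.05 and 1.43) were up-regulated in both experiments, with sums over the list of 21.7 to 24.3 against 13.5 to 13.6 and of 16.5 to 19.9 against 9.61 to 11.3, and of 7 primordial germ cell markers *Prdm1* (-1.12) was down-regulated in the first. The part of these markers in the values of the 10 genes was not tested.

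The *Mtrex*-KO and *Nrde2*-KO effects were then compared in 1 model, each against its own WT. The *Nrde2*-KO effect was first that of the first experiment. The difference was called for 5 of the 10 genes, all with the larger effect in *Mtrex*-KO, as it was in that direction for 11.5% of all genes. It was 3.75 ± 0.41 on the log2 scale for *Taf7l* (adjusted p = 1.7e-06, limma), 2.50 ± 0.29 for *Mael* (2.9e-06), 1.66 ± 0.41 for *Slc25a31* (0.0033), 1.49 ± 0.38 for *Sycp1* (0.0037) and 1.23 ± 0.22 for *Ddx4* (2.3e-04). For *Dnmt1* the 2 effects differed by 0.16, with an interval from -0.09 to 0.41. On the CPM as deposited the difference was called for 2 of the 10. In that setting the median of all genes in *Mtrex*-KO lay at -0.38, and the share of all genes called is not given here. Against the second *Nrde2*-KO experiment, a comparison added after the data were seen, it was called for 3 of the 10 (12.8% of all genes), *Taf7l* at 3.14 ± 0.41, *Mael* at 2.39 ± 0.29 and *Ddx4* at 1.10 ± 0.22, and no longer for *Slc25a31* (1.27 ± 0.41, adjusted p = 0.017, limma) and *Sycp1* (1.22 ± 0.38, adjusted p = 0.013, limma).

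The 2 mutant lines of *Nrde2* share the WT libraries of the first *Nrde2*-KO experiment. Each was an edited line set against another line, so mutation and clone cannot be told apart. In *Nrde2*Δ*200* none of the 10 genes was called by limma, edgeR or DESeq2 (1.58% of all genes were up-regulated and 1.07% down-regulated). An unadjusted p below 0.05 (limma) was found for 3 of the 10, and for 4477 of the 14889 genes tested. *Mael* was lower in both libraries, at 1.12 and 1.17 normalised CPM against 2.17 and 2.25 in WT (log2 fold change -0.81 ± 0.20, adjusted p = 0.011, limma). *Sycp1* was at 2.22 and 1.52 against 2.71 and 3.95 (-0.76 ± 0.27, adjusted p = 0.062, limma). In all 3 genes were higher and 4 lower in both *Nrde2*Δ*200* libraries, against 30.8% and 33.0% of all genes. *Asz1*, the called gene of *Nrde2*-KO, was at 0.535 and 0.641 in *Nrde2*Δ*200*, and its interval ran from -0.65 to 0.49. *Dnmt1* was at 397 and 380 (-0.28, adjusted p = 0.031, limma). Of the 8 2-cell-like markers 3 were up-regulated, as was *Dab2* (1.24) of 5 primitive endoderm markers, while *Prdm1* (-1.78) of 7 primordial germ cell markers was down-regulated, and their part in these values was not tested.

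In *Nrde2-D174R* none of the 10 genes was called by limma, edgeR or DESeq2 either (0.154% of all genes were up-regulated and 0.0604% down-regulated). An unadjusted p below 0.05 (limma) was found for 3 of the 10, and for 2623 of the 14889 genes tested. *Tex101* was at 0.574 and 0.673 normalised CPM against 0.332 and 0.207 in WT (0.76 ± 0.23, adjusted p = 0.10, limma). *Stk31* was at 29.3 and 31.8 against 22.1 and 24.4 (0.39, adjusted p = 0.12, limma) and *Sycp3* at 4.35 and 4.40 against 5.82 and 6.35 (-0.45, adjusted p = 0.21, limma). There were 3 genes higher and 3 lower in both libraries, against 27.9% and 29.4% of all genes. *Dnmt1* was at 490 and 491, and its log2 difference of 0.06 had an interval from -0.12 to 0.24. No 2-cell-like marker was called.

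*Dnmt1* RNA was also lower after depletion of CCDC174, and none of the 10 germline genes was called. *Dnmt1* was at 493 and 483 normalised CPM in WT and at 312 and 288 in *Ccdc174-dTAG* (log2 fold change -0.70 ± 0.08, adjusted p = 1.9e-05, limma), again short of the fold threshold. None of the 10 genes was called by limma, edgeR or DESeq2 (0.228% of all genes were up-regulated and 1.16% down-regulated). An unadjusted p below 0.05 (limma) was found for 3 of the 10, and for 3789 of the 14889 genes tested. *Ddx4* was at 8.59 and 8.33 in WT and at 11.0 and 13.4 after depletion (0.51, adjusted p = 0.043, limma), and *Sycp3* was at 5.36 and 6.98 and then at 8.51 and 9.86 (0.56, adjusted p = 0.053, limma). These genes were among the 4 that were higher in both libraries, with *Stk31* and *Asz1*, against 28.7% of all genes. *Taf7l* was at 1.53 and 1.70 in WT and at 1.25 and 1.77 after depletion, with an interval from -0.71 to 0.51, and the median over the 10 genes was 0.06 against 0.02 over all genes. *Dazl* was at 71.5 and 143 in WT and at 59.5 and 113 after depletion, so its groups overlapped. For *Dnmt1* the effects of CCDC174 depletion and NRDE2 loss differed by -0.05, with an interval from -0.29 to 0.20. All values of NRDE2 loss here are those of the first experiment. The effects differed for none of the 10 genes (called for 1.0% of all genes in either direction), the smallest adjusted p among them was 0.27 (limma) and none had an unadjusted p below 0.05. Of the 40 further germline genes tested 1 was down-regulated, *Zcwpw1* (-1.11), and no 2-cell-like marker was called in *Ccdc174-dTAG*.

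**Figure D4:**
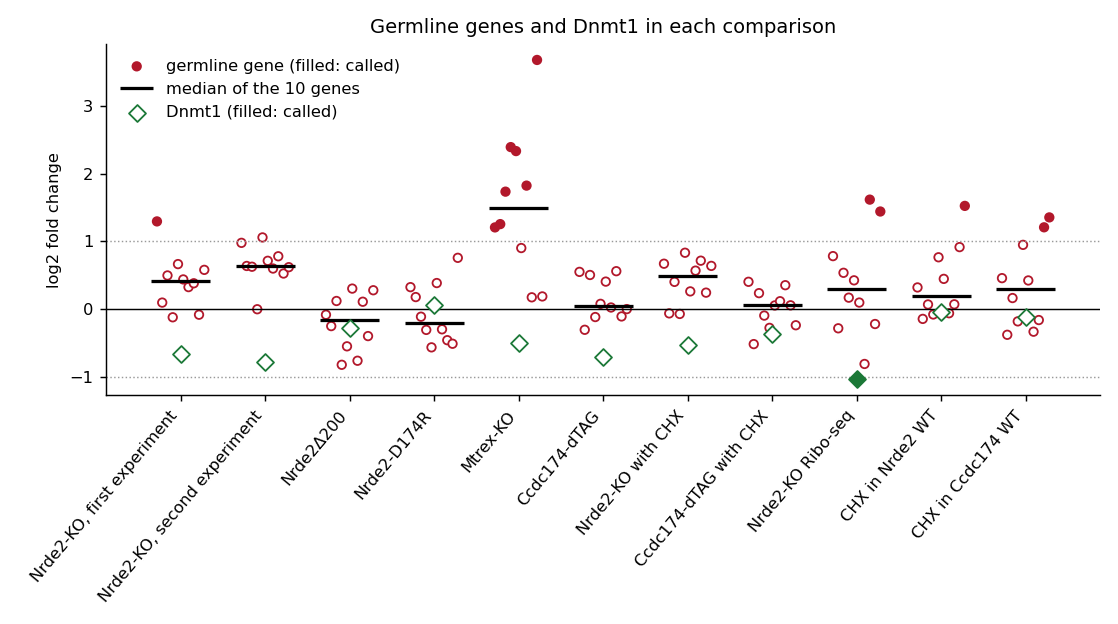
Log2 fold changes, on the log2(normalised CPM + 0.25) scale, of the 10 germline genes (points) and of *Dnmt1* (separate mark) in each comparison, with called genes filled. In *Mtrex*-KO 7 genes are called and the median is 1.49, while *Dnmt1* lies at -0.66, -0.77, -0.50 and -0.70 in *Nrde2*-KO (both experiments), *Mtrex*-KO and *Ccdc174-dTAG*.

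CHX alone raised *Tex101* in both WT lines and *Taf7l* in one of them, while *Dnmt1* was not called. In the *Nrde2* WT cells 1 of the 10 was up-regulated by CHX (11.2% of all genes) and in the *Ccdc174* WT cells 2 (12.6%), and none was down-regulated in either (2.91% and 2.61%). In *Nrde2* WT 4 of the 10 were higher and 1 lower in both CHX libraries (40.4% and 39.3% of all genes), and in *Ccdc174* WT 6 were higher (40.6%). *Tex101* was the gene called in both. It was at 0.379 and 0.359 normalised CPM without CHX and at 1.96 and 1.18 with CHX in *Nrde2* WT (log2 fold change 1.52 ± 0.20, adjusted p = 1.7e-05, limma), and at 1.04 and 1.26 and then 3.12 and 3.54 in *Ccdc174* WT (1.35 ± 0.20, adjusted p = 4.5e-05, limma). *Taf7l* was at 1.53 and 1.70 without and at 3.63 and 4.54 with CHX in *Ccdc174* WT (1.21 ± 0.21, adjusted p = 1.6e-04, limma). In *Nrde2* WT it was at 3.41 and 2.52 and then at 6.51 and 5.09 (0.92, adjusted p = 0.0016, limma), below the fold threshold, and it was called at 1.12 without the first untreated library and at 1.09 without the second CHX library. *Slc25a31* (0.77 and 0.95) and *Stk31* (0.45 and 0.43) had adjusted p-values from 9.2e-04 to 0.0047 (limma) in the 2 lines without passing it. *Slc25a31* was called in *Ccdc174* WT by edgeR (1.07) and DESeq2 (1.02) and without the second untreated (1.20) or the second CHX library (1.06), and in *Nrde2* WT without the first untreated library (1.02). The intervals for *Dnmt1* ran from -0.17 to 0.10 and from -0.24 to 0.03. The summed level of the 7 pluripotency markers was 5059 and 5138 normalised CPM without and 3261 and 3345 with CHX in *Nrde2* WT, and *Nanog* (-1.15 and -1.25) and *Tfcp2l1* (-1.33 and -1.41) were the 2 of the 7 down-regulated in each line. Of 5 primitive endoderm markers tested, all above 0 in each line, *Sox17* (1.28 and 1.05) was up-regulated in both and *Pdgfra* (1.404) in *Ccdc174* WT. Of 3 markers of formative or primed epiblast tested, *Otx2* (1.92 and 2.05) was up-regulated in both lines. Only 1 of these 3 lay above 0 in each line, and their medians were -0.54 and -0.10. Of 7 primordial germ cell markers *Prdm1* (1.09) was up-regulated in *Nrde2* WT, where 2 of the 7 lay above 0. In *Ccdc174* WT it was *Tfap2c* (1.63), and 5 of the 7 lay above 0. The part of these markers in the result was not tested.

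With CHX in both groups, the libraries labelled *Nrde2*-KO were set against WT. None of the 10 genes was called by limma, edgeR or DESeq2 (2.82% of all genes were up-regulated and 1.73% down-regulated). An unadjusted p below 0.05 (limma) was found for 7 of the 10, and for 7884 of the 15476 genes tested. There were 8 genes higher in both libraries, against 36.3% of all genes, with a median log2 fold change of 0.49. *Slc25a31* was at 3.59 and 3.04 normalised CPM in WT and at 6.22 and 5.96 in the libraries labelled *Nrde2*-KO (0.83 ± 0.15, adjusted p = 0.0012, limma). *Sycp1* was at 8.54 and 7.38 and then at 11.8 and 12.0 (0.57 ± 0.11, adjusted p = 0.0015, limma) and *Asz1* at 1.58 and 1.23 and then at 2.48 and 2.27 (0.67 ± 0.16, adjusted p = 0.0063, limma). *Dnmt1* was at 506 and 551 and then at 363 and 374 (-0.52 ± 0.05, adjusted p = 2.6e-05, limma). *Sycp3* was called at 1.13 when the first WT library was left out. The effect with CHX and that without differed for none of the 10 genes (called for 0.172% of all genes in either direction), with 1 gene at an unadjusted p below 0.05. The sum of the 2-cell-like markers was 56.0 to 62.1 against 5.29 to 5.33, 2 of 5 primitive endoderm markers were up-regulated, *Gata6* (1.81) and *Pdgfra* (1.49), with a sum over the list of 23.2 to 28.1 against 13.6 to 16.1, and their part in these values was not tested.

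In *Ccdc174-dTAG* with CHX none of the 10 genes was called by limma, edgeR or DESeq2 (0.207% of all genes were up-regulated and 0.704% down-regulated). An unadjusted p below 0.05 (limma) was found for 2 of the 10, and for 5478 of the 15476 genes tested. *Dazl* was at 63.7 and 95.4 normalised CPM in WT and at 46.4 and 64.5 after depletion (-0.51 ± 0.18, adjusted p = 0.066, limma), and *Asz1* at 3.63 and 3.47 and then at 4.99 and 4.60 (0.41 ± 0.16, adjusted p = 0.095, limma). There were 5 genes higher and 2 lower in both libraries, against 33.4% and 29.9% of all genes. *Dnmt1* was at 454 in both WT libraries and at 353 and 354 after depletion (-0.36 ± 0.05, adjusted p = 9.5e-04, limma). The effect with CHX differed from that without for none of the 10 genes (0.0727% of all genes in either direction), with 1 gene at an unadjusted p below 0.05.

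Ribosome footprints showed which of these RNAs were engaged by ribosomes. All 10 genes had footprints in all 4 libraries, but with few reads, from 5 to 10 for *Taf7l*, 8 to 35 for *Sycp3* and 11 to 34 for *Tex101*. In *Nrde2*-KO 2 of the 10 were up-regulated and none down-regulated (3.62% and 2.8% of all genes). *Sycp3* was at 2.21 and 1.06 normalised CPM in WT and at 6.09 and 4.54 in *Nrde2*-KO (log2 fold change 1.62 ± 0.33, adjusted p = 7.3e-04, limma). *Tex101* was at 1.43 and 1.595 and then at 4.66 and 4.41 (1.44 ± 0.30, adjusted p = 9.0e-04, limma). The groups of both were well apart, and both calls were lost with DESeq2 (adjusted p = 0.017 and 0.033) and without the filter on low values (adjusted p = 0.027 and 0.012, limma).

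The other footprint levels went both ways. *Asz1* was at 1.95 and 1.99 normalised CPM in WT and at 3.40 and 3.76 in *Nrde2*-KO (0.78, adjusted p = 0.050, limma), and *Sycp1* at 2.60 and 3.72 and then at 1.97 and 1.43 (-0.80, adjusted p = 0.070, limma). *Dazl*, the gene with the most footprints, was at 39.8 and 42.9 and then at 34.4 and 33.7 (-0.28, adjusted p = 0.035, limma). There were 5 genes higher and 2 lower in both libraries, against 33.2% and 34.2% of all genes, and the median was 0.30. *Dnmt1* footprints fell from 192 and 223 to 101 and 102, a log2 fold change of -1.03 ± 0.08 (adjusted p = 1.4e-08, limma). That value lay at the fold threshold, and it was -0.88 on the CPM as deposited and -0.92 without the second WT library.

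The change in footprints was compared with that in RNA of the first *Nrde2*-KO experiment in 1 model. The difference was called for none of the 10 genes (1.18% of all genes in either direction) and 2 had an unadjusted p below 0.05. These were *Sycp3*, with 1.23 ± 0.39 (adjusted p = 0.053, limma) and *Sycp1*, with -1.13 ± 0.40 (adjusted p = 0.077, limma). For *Dnmt1* the footprint change was lower than the RNA change by -0.37 ± 0.11 on the log2 scale (adjusted p = 0.037, limma). In the footprints *Dnmt1* was the 1 called gene of the 12 tested from the DNA methylation machinery, and of the PRC1.6 and histone repressor list *Tfdp1* (-1.23), *Ehmt2* (-1.11) and *L3mbtl2* (-1.07) were down-regulated. Of the 35 further germline genes tested 3 were up-regulated, *Dmc1*, *Tex19.2* and *Rhox13*, and 2 down-regulated, *Tdrd12* (-2.06) and *Tex14* (-1.47). The 2-cell-like markers were too low in the footprints to be tested. Of 4 primitive endoderm markers tested *Gata6* (1.77) and *Pdgfra* (1.65) were up-regulated, with a sum over the list of 12.1 to 14.0 against 4.25 to 5.20, of 6 primordial germ cell markers *Prdm1* (-1.89) was down-regulated, and their part in the result was not tested.

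**Figure D5:**
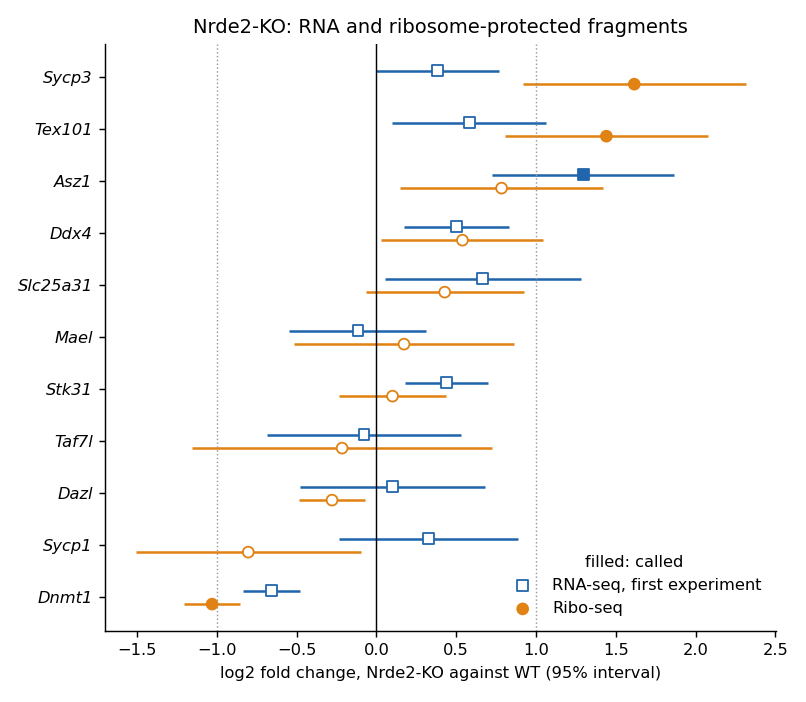
Log2 fold change (x axis), on the log2(normalised CPM + 0.25) scale, of each germline gene and of *Dnmt1* (rows) in *Nrde2*-KO against WT, with squares for RNA-seq of the first experiment, circles for Ribo-seq, filled marks for called genes and bars for 95% confidence intervals. *Sycp3* lies at 0.38 in RNA and 1.62 in footprints, *Sycp1* at 0.33 and -0.80, and *Dnmt1* at -0.66 and -1.03.

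The promoters were set beside these changes as a description. Of the 7 genes called in *Mtrex*-KO, 5 hold the E-box shown in capitals above (*Ddx4*, *Mael*, *Sycp1*, *Slc25a31* and *Taf7l*) and 2 (*Dazl* and *Asz1*) do not. Of the 3 not called, *Sycp3* and *Stk31* hold it and *Tex101* does not. *Sycp3*, with 2 E-boxes and an E2F motif in its window, had the smallest log2 fold change of the 10 in *Mtrex*-KO, while *Taf7l*, with 1 E-box, had the largest. Over the means of the 10 RNA-seq groups without CHX, the average pattern of the 10 genes was most closely followed outside the list by *Nt5c2* (r = 0.968), *Dancr* (0.967), *2310057M21Rik* (0.957), *Cir1* (0.955) and *Zfp54* (0.954) among 14879 genes. These points share libraries and WT lines, and the correlations are given as a description. The 10 genes, which make up that pattern, themselves correlated with it from 0.511 (*Stk31*) to 0.942 (*Sycp1*). The correlation of *Dnmt1* with that pattern over the same 10 group means was -0.54. The share of all genes with a correlation this low was not computed, so this value only describes *Dnmt1*.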

How the data were processed

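RNA-seq and Ribo-seq were analysed from 2 tables of CPM per gene that the authors deposited. Per the methods and labels, the authors mapped reads to mm10 with STAR 2.7.3a (the labels also list 2.7.0a), counted stranded unique reads in GENCODE genes with featureCounts and scaled them to the library total, after collapsing duplicates in Ribo-seq. Gene names came from GENCODE release 21 (55154 of 55335 ids matched, the authors used release 23), and promoter sequences from RefSeq on GRCm38.p6.

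CPM were divided by median-of-ratios factors and tested on log2(CPM + 0.25) with limma 3.58.1 in R 4.3.3 over genes of mean CPM of at least 0.5, with Benjamini-Hochberg adjustment over all genes. The fits took all 20 RNA-seq libraries without CHX, the 8 with CHX, the 4 Ribo-seq libraries, the 16 of the CHX experiments or the 8 of Ribo-seq against RNA-seq, with group as the only term. All 10 genes passed the filter in each fit. Whole reads were recovered for 100% of the deposited values (within 0.1 of a whole number) and tested with edgeR 4.0.16 and DESeq2 1.42.0 as alternatives, which called 832 and 864 genes in the first *Nrde2*-KO experiment, against 745 with limma. Scripts were tested on simulated data. A further 16 samples were not analysed here. The authors' thresholds for a call were used. The named genes are the 10 genes, *Dnmt1*, fixed regulators and, per list and comparison, at most 3 called genes in each direction by size. The genes and lists were chosen with earlier results of these data known.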

Additional observations from a re-analysis of the deposited data

Results flagged for a closer look

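The effect of *Mtrex*-KO minus that of the first *Nrde2*-KO experiment, each against its own WT in 1 limma model, was past the threshold for 5 of the 10 germline genes. On the log2 scale it was 3.75 for *Taf7l*, 2.50 for *Mael*, 1.66 for *Slc25a31*, 1.49 for *Sycp1* and 1.23 for *Ddx4*. All 5 genes were higher in both *Mtrex*-KO libraries than in the WT of that experiment, which had the lowest WT mean of each. *Sycp1*, at 7.80 and 9.09 normalised CPM in *Mtrex*-KO, reached 12.1 in a WT library of another experiment. In the first *Nrde2*-KO experiment their log2 fold changes were -0.08, -0.12, 0.67, 0.33 and 0.50 in the same order, and in the second 0.53, 0.00, 1.06, 0.60 and 0.63. Against the second, the difference was called for 3 of the 5, *Taf7l*, *Mael* and *Ddx4*.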

How the results depend on the processing

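The log2 fold changes of the 10 genes and *Dnmt1* were recomputed under the alternatives, 1551 values in all. Of these, 1519 kept their side of the thresholds, 16 lost a call, 16 gained one and none reversed a called direction. Among those that kept their side, 56 changed sign without a call. For the first *Nrde2*-KO experiment the count was 0 with 1 added in place of 0.25, and 0 to 1 with each library left out in turn. For the second it was 1 on the CPM as deposited, with DESeq2 and with only the compared groups in the fit, and 0 to 1 with libraries left out. For *Nrde2*-KO with CHX it was 0 to 1 with libraries left out. For Ribo-seq it was 0 without the filter and 0 with DESeq2, and 2 with any library left out. For CHX in *Nrde2* WT it was 0 with 1 added, 2 on the CPM as deposited and 1 to 3 with libraries left out (3 without the first untreated and 2 without the second CHX library), and for CHX in *Ccdc174* WT 1 with 1 added, 3 with edgeR, DESeq2, 0.1 added and the CPM as deposited, and 2 to 3 with libraries left out. For *Mtrex*-KO it was 6 to 7 with libraries left out and 5 on the CPM as deposited, and *Asz1* was at 0.56 with 1 added. The difference between *Mtrex*-KO and *Nrde2*-KO was called for 2 genes on the CPM as deposited, and for 3 against the second *Nrde2*-KO experiment, chosen after seeing the data. The cause of these moves was not tested.

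With the replicate block the count was 1 in both *Nrde2*-KO experiments, 7 in *Mtrex*-KO, 2 in Ribo-seq, 1 and 2 for CHX, and 0 otherwise, so that it gained *Slc25a31* in the second *Nrde2*-KO experiment and changed no other count. The labels share only replicate numbers. For each gene the deviation of a replicate from its group mean was taken. Between groups of an experiment these deviations of same-numbered libraries correlated from -0.03 to 0.42, and most values lay above 0.

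Over all genes, counts moved by more than 1.5 times with 1 added, to 397 from 745 in the first and 474 from 718 in the second *Nrde2*-KO experiment, 217 from 394 in *Nrde2*Δ*200*, 136 from 206 in *Ccdc174-dTAG*, 396 from 704 and 64 from 141 with CHX, and 1341 from 2131 and 1467 from 2308 for CHX itself. Without the filter they were 256 in *Nrde2*Δ*200*, 5 from 32 in *Nrde2-D174R*, 49 in *Ccdc174-dTAG* with CHX and 561 from 890 in Ribo-seq, where DESeq2 called 562. For *Nrde2-D174R* DESeq2 called 72, the replicate block 78 and only the compared groups 56, with 0 to 6 when a library was left out. Leaving out 1 library also gave 138 to 291 in *Nrde2*Δ*200*, 488 in the first *Nrde2*-KO experiment without the first knockout library, and 116 and 83 in *Ccdc174-dTAG* without and with CHX, in each without the second depleted library. On the CPM as deposited the share of up-regulated among called genes moved from 59.3% to 34.1% in *Mtrex*-KO and from 56.4% to 75.5% in Ribo-seq, with medians of all genes at -0.38 and 0.15, and with 0.20 and 0.21 for CHX.

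Depth limits *Asz1*, *Tex101* and *Slc25a31*, with as few as 3, 8 and 9 reads in an RNA-seq library, and most Ribo-seq values.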
